A study of Homo sapiens with 11 samples.

Results

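The regions described here are the sites in U2OS cells where CUL4A, a replication origin and the histone mark H3K4me3 coincided and the substrate receptor CDT2 was not called. They were chosen from the CUL4A ChIP-Seq islands on chromosomes 1 to 22 as those sharing at least 1 bp with an origin and at least 1 bp with an H3K4me3 peak, and no base with a CDT2 peak. Of 55717 islands, 5484 (9.84%) met this rule and are called the CDT2-free H3K4me3 origin islands below. The choice therefore used 4 of the 8 lists of regions, and what those 4 lists say about the chosen islands is a description and not a finding.

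CUL4A is a scaffold of the CRL4 ubiquitin ligases, which mark licensing factors such as CDT1 for degradation so that DNA is copied once in a cell cycle. CRL4 reads its substrates through exchangeable receptors (DCAFs): CDT2 acts on substrates bound to PCNA on replicating chromatin, and RepID (also called PHIP or DCAF14) binds a subset of origins. SKP2 is the F-box receptor of SCF, another ubiquitin ligase that acts on CDT1. H3K4me3 is known as a mark of active gene starts and of early replicating chromatin, whereas H3K9me3 is known for heterochromatin that replicates late.

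Of the 11 samples, 8 had a list of regions, with 1 sample per list, and 3 were inputs without a list. U2OS is a human osteosarcoma line and HCT116 a human colon carcinoma line, and cultures were asynchronous and untreated. CUL4A, H3K4me3, H3K9me3 and nascent strands, short new DNA strands that resist lambda exonuclease and mark origins, came from U2OS cells with wild-type RepID. For CDT2, the deposited design names a stable U2OS line that over-expressed full-length FLAG-RepID, and the title of an input names such a line too. The account of the experiment in the study names wild-type U2OS for CDT2 instead, so the RepID level behind the CDT2 list is uncertain. SKP2 was mapped in HCT116 cells with wild-type RepID (WT) and in HCT116 cells lacking it (RepID KO). Nascent strands of HCT116 came from RepID KO cells of 1 clone. Origins of HCT116 WT cells and the FLAG-RepID peaks were not used here.

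Library totals were not used here, so the sequencing depth is unknown and a region missing from a list cannot be told apart from a region too weak to be called. With 1 sample per list there is no replicate error. Intervals below are 95% Wilson intervals for shares and 95% Newcombe intervals for differences between shares. They cover the counting of regions only and no p-value is given, since regions are not replicates of a condition and neighbouring islands can share an origin or a mark.

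The rule narrowed the islands in 3 steps. An origin was shared by 38872 of the 55717 islands (69.8%), and 7631 (13.7%) carried both an origin and H3K4me3. H3K4me3 alone was shared by 16.2% of all islands and CDT2 by 25.9%. Removing the 2147 islands that also met CDT2 left the 5484. For comparison, 3 sets that differ from them in a single criterion were formed: these 2147 islands with CDT2, 22243 islands with an origin but neither H3K4me3 nor CDT2, and 1113 islands with H3K4me3 but neither an origin nor CDT2.

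The 5484 islands were of moderate size and signal. Their median width was 2600 bp, with quartiles of 1400 and 4400 bp and a range of 200 to 57000 bp, against a median of 2000 bp over all islands. The CUL4A score of the authors, whose scale is not stated, had a median of 33.8 per kb (quartiles 24.6 and 49.4). That level was near the median of all islands (34.7) and of the islands without H3K4me3 (33.2), and below that of the islands with CDT2 (46.0). As a description, the median CUL4A score per kb was lower without CDT2 than with it. The medians with and without H3K4me3 were 33.8 (33.1 to 34.3) and 33.2 (32.9 to 33.5). Their 95% intervals overlapped, which does not show that they are equal.

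H3K4me3 was one of the marks that chose these islands, and its level among them ranged widely. The highest fold enrichment over the control at an island had a median of 9.86 (quartiles 5.62 and 14.5), and the widest peak a median of 3190 bp (quartiles 1508 and 4708 bp). At the islands with CDT2 the same medians were 6.62 and 1556 bp. Over all 24227 H3K4me3 peaks, counted singly and not as the strongest at an island, the medians were 7.10 and 1902 bp. H3K4me3 covered a median of 70.1% of each CDT2-free island and 33.6% of each island with CDT2. At the H3K4me3 islands without an origin or CDT2, the median fold enrichment was 9.27 and the median widest peak 2421 bp.

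By the choice of the islands, CUL4A met both the origin and the mark, and at most islands all 3 had bases in common. At least 1 base was shared by all 3 at 5357 of the 5484 islands (97.7%), with a median of 1200 bp in common, and 127 islands met the origin and the mark at different bases. Origins covered a median of 100% of the island, and 3062 islands (55.8%) lay wholly inside origin sequence. H3K4me3 enclosed 1640 islands (29.9%), and 1215 (22.2%) lay wholly inside both. At 483 islands (8.81%) the mark covered under 10% of the bases.

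Most of the islands had their own origin and their own mark. A single origin was met by 4886 islands (89.1%) and a single H3K4me3 peak by 5192 (94.7%). Because an origin can span several islands, 752 islands (13.7%) shared an origin with another island of the set, and 666 (12.1%) shared an H3K4me3 peak. In all, the set met 5734 of 126050 U2OS origins (4.55%) but 5478 of 24227 H3K4me3 peaks (22.6%).

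Around the island centres, coverage by each list was read in steps of 200 bp. H3K4me3 covered 64.9% of the centres and fell away to 6.89% of positions at 9 to 10 kb. U2OS origins covered 88.4% of the centres and 42.4% of these flanks. Both peaks follow from the choice of the islands. HCT116 RepID KO origins, which the rule did not use, also had their highest coverage near the centre, with 82.5% against 35.7% in the flanks. At the islands without H3K4me3 the same list covered 64.6% of centres and 37.5% of flanks, so the flanks were alike and the centres were not.

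**Figure D1:**
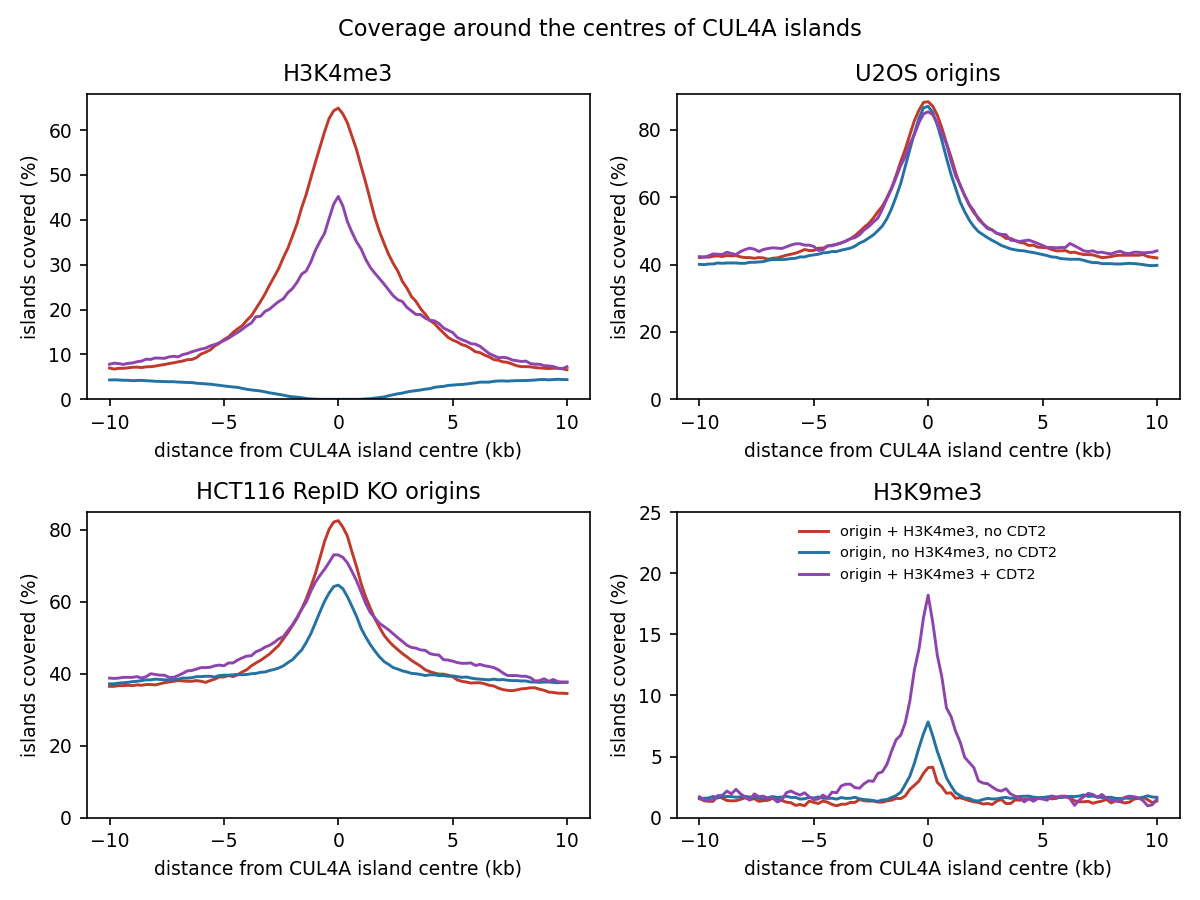
Percentage of islands covered by each list (vertical axis) against the distance from the CUL4A island centre in kb (horizontal axis), for the 5484 CDT2-free H3K4me3 origin islands (red), the 22243 origin islands without H3K4me3 and CDT2 (blue) and the 2147 with CDT2 (purple). RepID KO origins reached 82.5% at the red centres and 64.6% at the blue ones, and H3K9me3 reached 18.2% at the purple centres and 4.10% at the red ones.

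The first list that the rule did not use holds the origins of another cell line without RepID. Of the 5484 islands, 5034 (91.8%, 91.0 to 92.5) overlapped an origin of HCT116 RepID KO cells, against 67.0% of all CUL4A islands. The share was 85.2% (83.6 to 86.6) at the islands with CDT2, 76.2% (73.6 to 78.6) at those without a U2OS origin and 73.3% (72.7 to 73.9) at those without H3K4me3. The CDT2-free H3K4me3 islands thus had the highest share of the 4 sets. They exceeded the islands without H3K4me3 by 18.5 percentage points (17.5 to 19.4), those without an origin by 15.6 points (13.1 to 18.3) and those with CDT2 by 6.61 points (4.98 to 8.32). The chosen islands had to meet a U2OS origin, which the islands without an origin lack and 69.8% of all islands have. A higher share with origins of another line can follow from that choice in both comparisons, and its part was not tested. Cell line and RepID status differ together in this list, and their parts cannot be told apart here.

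Wide islands meet any list more often, so the comparison was repeated within 5 classes of island width. In islands of up to 1000 bp, RepID KO origins were met by 82.2% (79.4 to 84.6) of the CDT2-free H3K4me3 islands and by 48.5% (46.9 to 50.0) of those without H3K4me3. Above 2000 and up to 4000 bp the shares were 93.6% (92.3 to 94.6) and 80.1% (79.2 to 81.0). Above 8000 bp, where 411 of 411 and 962 of 970 islands met a RepID KO origin, the shares were 100% (99.1 to 100) and 99.2% (98.4 to 99.6), and their intervals overlapped. The gap was therefore widest among narrow islands. Weighted to the widths of the CDT2-free H3K4me3 islands, the difference was 16.0 points (15.2 to 16.9) from the islands without H3K4me3, 10.5 points (7.73 to 13.3) from those without an origin (11.4 points, 8.36 to 14.4, for islands of up to 8000 bp) and 9.78 points (7.91 to 11.7) from those with CDT2. With the rule applied to 1 kb around the island centres, which chose 4498 islands, the share was 89.4%, against 63.7% of all centres.

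**Figure D2:**
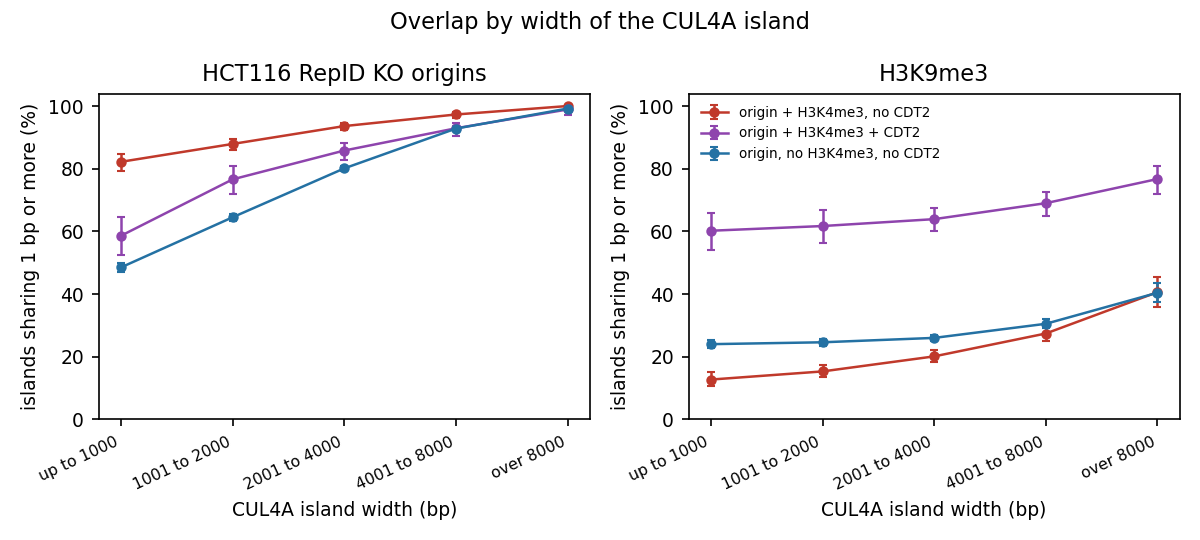
Percentage of islands sharing at least 1 bp with HCT116 RepID KO origins (left) and H3K9me3 (right) by CUL4A island width in bp, for the CDT2-free H3K4me3 origin islands (red), those with CDT2 (purple) and those without H3K4me3 (blue). Bars are 95% Wilson intervals. Up to 1000 bp, RepID KO origins were met by 82.2% of red and 48.5% of blue islands, and above 8000 bp H3K9me3 was met by 40.6% and 40.4%.

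The same was seen when origins were counted in place of islands. Of the 5734 U2OS origins at these islands, 5291 (92.3%, 91.6 to 92.9) shared a base with a RepID KO origin, against 42.2% of all U2OS origins. The share was 73.6% (73.0 to 74.2) for 21202 origins with CUL4A but neither H3K4me3 nor CDT2. It was 71.2% (70.1 to 72.3) for 6685 origins with H3K4me3 but neither CUL4A nor CDT2, and 24.1% (23.8 to 24.4) for 77228 origins with none of the 3. Origins at the chosen islands were also wider, with a median of 3800 bp against 3000, 2600 and 2000 bp in these groups. After weighting to their widths, their share stayed above those groups by 15.6 points (14.7 to 16.5), 17.7 points (16.3 to 19.0) and 58.7 points (57.8 to 59.6).

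H3K9me3, mapped in the same U2OS cells, was less frequent at these islands than at CUL4A islands in general. It was shared by 1147 of them (20.9%, 19.9 to 22), against 33.2% of all islands. The level depended on the setting. With the rule applied to 1 kb around the island centres, which chose 4498 islands, the share was 11.1%, against 22.6% of all centres. At the islands with CDT2 the share was 66.6% (64.5 to 68.5), which is 45.6 points higher (43.3 to 47.9). The islands without H3K4me3 had 26.7% (26.1 to 27.3), so the CDT2-free H3K4me3 islands differed from them by -5.76 points (-6.97 to -4.52). The H3K4me3 islands without an origin had 15.0% (13.0 to 17.2), a difference of 5.91 points (3.45 to 8.17). After weighting to the same widths it was 2.55 points (-2.11 to 7.22), an interval that holds 0, but that value leans on 4 islands above 8000 bp without an origin. Without islands above 8000 bp it was 3.52 points (0.434 to 6.60). Weighting put the other differences at -43.9 points (-46.3 to -41.5) and -6.48 points (-7.71 to -5.24).

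The gap in H3K9me3 to the islands without H3K4me3 was widest in the narrow islands. Up to 1000 bp the shares were 12.7% (10.6 to 15.1) and 24.0% (22.7 to 25.3), and above 4000 and up to 8000 bp they were 27.4% (24.9 to 30.0) and 30.5% (29.1 to 32.0). Above 8000 bp they were 40.6% (36.0 to 45.4) and 40.4% (37.4 to 43.5), which were not distinguishable. Across the same width classes the islands with CDT2 stayed above both, as the plot by island width shows.

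H3K9me3 at these islands often lay on the H3K4me3, which the rule favours, since the mark covers much of each island. Of 1240 H3K9me3 peaks at the islands, 881 (71.0%) also shared a base with an H3K4me3 peak, against 5.91% of all H3K9me3 peaks, most of which lie away from the mark, and 856 of the 1147 islands with H3K9me3 (74.6%) held such a peak. Seen from the active mark, 981 of 5478 H3K4me3 peaks at the islands (17.9%) met H3K9me3, against 13.3% of all H3K4me3 peaks and 11.9% of those away from the islands. Peaks at the islands were wider (median 2912 against 1620 bp away from them), and after weighting to the same widths the difference was 5.35 points (4.17 to 6.52). The marks were mapped in separate immunoprecipitations of mixed cells, so marks on the same chromatin fibre and marks in different cells or on different alleles cannot be told apart.

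These H3K9me3 peaks were narrow and weak beside those at the islands with CDT2. Their median fold enrichment was 3.83 (quartiles 3.30 and 4.49) and their median width 332 bp. The values were 4.50 (3.65 and 5.87) and 447 bp with CDT2, and 4.03 and 322 bp over all H3K9me3 peaks. At the islands without H3K4me3 they were alike, with 3.87 (3.38 and 4.52) and 352 bp, so weak peaks were not particular to this set. A −log10 q of at least 2 was reached by 70.4% of the H3K9me3 peaks at the islands and by 66.8% of all. At the island centre H3K9me3 covered 4.10% of the CDT2-free H3K4me3 islands, 7.84% of those without H3K4me3 and 18.2% of those with CDT2. In the flanks the 3 values were 1.50%, 1.67% and 1.51%.

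SKP2 met few of these islands in either HCT116 line. The islands were mapped in U2OS and SKP2 only in HCT116, so the part of the cell line cannot be told apart here. SKP2 of WT cells was shared by 407 islands (7.42%, 6.76 to 8.15), against 7.45% of all islands. SKP2 of RepID KO cells was shared by 377 (6.87%, 6.23 to 7.57), against 8.01% of all islands. With the rule applied to 1 kb around the island centres, which chose 4498 islands, the shares were 3.96% and 3.36%, against 4.35% and 4.73% of all centres. The shares were thus near or below the background and are no result about these islands as such. The islands with CDT2 had 20.1% (18.5 to 21.9) and 17.0% (15.4 to 18.6), above the CDT2-free islands by 12.7 points (10.9 to 14.6) and 10.1 points (8.40 to 11.8).

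Against the islands without H3K4me3, the WT list gave a difference of 1.48 points (0.746 to 2.27) and the RepID KO list one of -0.458 points (-1.19 to 0.318), which is within counting error. Weighted to the same widths, these were 0.909 points (0.135 to 1.68) and -1.18 points (-1.95 to -0.414). The sign thus differed between the WT and RepID KO lists, which were called separately and hold 11929 and 13518 peaks, and the difference between the lists was not tested.

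The overlap of the 2 SKP2 lists at these islands was near that at CUL4A islands in general. SKP2 was present in both lines at 86 islands (1.57%), against 1.78% of all CUL4A islands. It was found in the WT list alone at 321 (5.85%, against 5.67% of all islands), in the RepID KO list alone at 291 (5.31%, against 6.24%) and in neither at 4786 (87.3%, against 86.3%). The 86 islands had a median CUL4A score of 63.3 per kb and a median width of 5000 bp, against 32.5 per kb and 2400 bp where SKP2 was in neither list. H3K9me3 was shared by 39.5% of the 86 and by 19.1% of the 4786. Among all the chosen islands above 4000 and up to 8000 bp it was 27.4% (24.9 to 30.0). The part of island width in this was not tested.

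**Figure D3:**
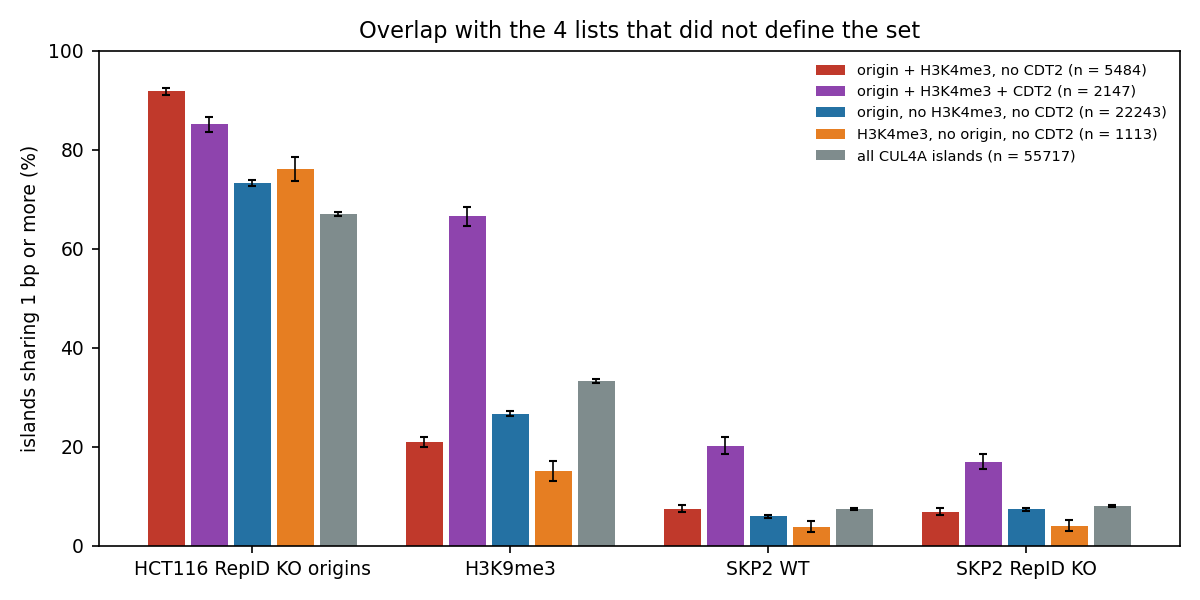
Percentage of CUL4A islands sharing at least 1 bp with each of the 4 lists that the rule did not use, for the CDT2-free H3K4me3 origin islands (red), the 3 sets that differ from them in a single criterion, and all islands (grey). Bars start at 0 and lines are 95% Wilson intervals. The red bars stand at 91.8% for RepID KO origins, 20.9% for H3K9me3, 7.42% for SKP2 WT and 6.87% for SKP2 RepID KO.

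Taking the 4 lists together, the most common state was a RepID KO origin with neither H3K9me3 nor SKP2, at 3576 islands (65.2%), against 40.5% of all islands. None of the 4 lists met 298 islands (5.43%, against 19.1% of all islands), which had a median width of 1400 bp. All 4 lists met 34 islands (0.620%, against 0.978%). The 450 islands without a RepID KO origin were narrower (median 1600 against 2800 bp) than the 5034 with it. They also had less H3K4me3, with a median fold enrichment of 8.05 against 10.1 and a median widest peak of 2160 against 3250 bp.

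Within the set, the islands were divided by the width of their widest H3K4me3 peak. There were 1019 under 1 kb, 696 from 1 to under 2 kb, 1814 from 2 to under 4 kb and 1955 of 4 kb or more. The median H3K4me3 fold enrichment was 4.13, 5.85, 11.3 and 13.0 in this order, while the median island width stayed between 2400 and 2800 bp. H3K9me3 was shared by 28.7% (26.0 to 31.5) of islands with a peak under 1 kb by 21.6% (18.7 to 24.8) of those from 1 to under 2 kb, by 17.6% (16.0 to 19.5) of those from 2 to under 4 kb and by 19.7% (18.0 to 21.5) of those of 4 kb or more. The islands with narrow H3K4me3 were thus within counting error of the 26.7% seen without any H3K4me3. RepID KO origins were met by 84.2% (81.8 to 86.3), 91.7% (89.4 to 93.5), 93.9% (92.7 to 94.9) and 93.8% (92.7 to 94.8) in the same order.

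**Figure D4:**
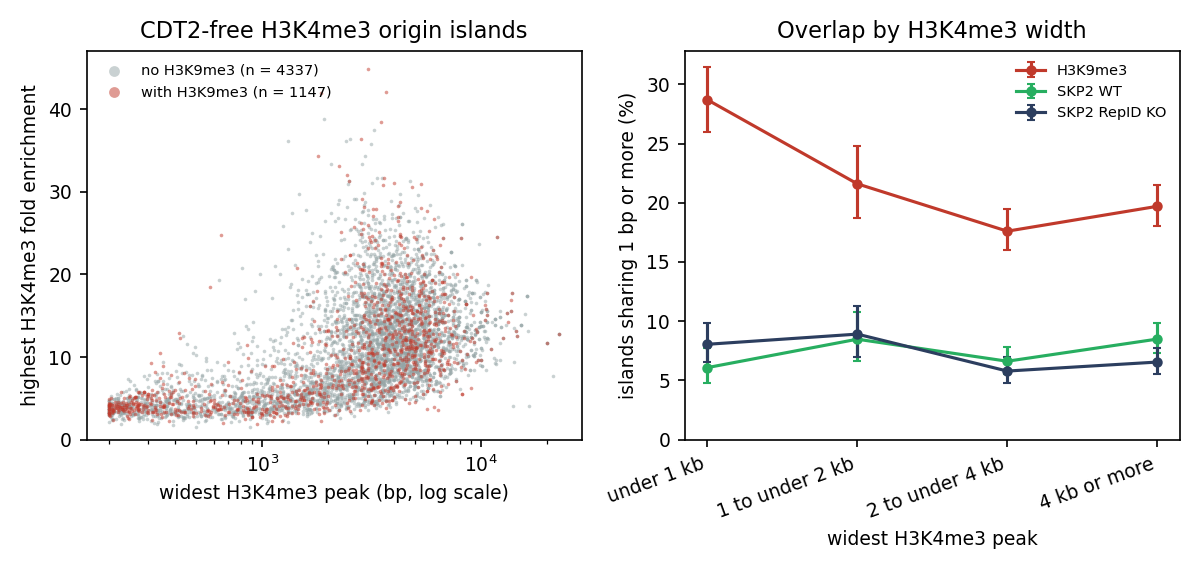
Left, each of the 5484 islands by the width of its widest H3K4me3 peak (bp, log axis) and its highest H3K4me3 fold enrichment, in red where H3K9me3 was also met (n = 1147) and grey where it was not (n = 4337). Right, percentage of islands sharing H3K9me3, SKP2 WT and SKP2 RepID KO by H3K4me3 width class, with 95% Wilson intervals, where H3K9me3 stands at 28.7% under 1 kb, 17.6% at 2 to under 4 kb and 19.7% at 4 kb or more.

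The CUL4A score and the H3K4me3 level varied almost separately among the islands. Spearman's rho was -0.07 between H3K4me3 fold enrichment and CUL4A score per kb, over 5484 islands that share their libraries. It was 0.62 between the fold enrichment and the width of the H3K4me3 peak, and 0.37 between the CUL4A score and the origin score, both per kb. These values are descriptions across regions and not across samples.

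The SKP2 shares rose with the CUL4A score and also with the origin score. The islands were ranked by CUL4A score per kb and divided into 5 equal groups. In the lowest group SKP2 WT was shared by 2.37% (1.62 to 3.45) and SKP2 RepID KO by 2.73% (1.92 to 3.88). In the highest group the shares were 15.3% (13.3 to 17.6) and 12.9% (11.0 to 15.0), although these islands were narrower (median 1400 against 3000 bp). H3K9me3 moved less, from 17.5% (15.4 to 19.9) to 22.7% (20.3 to 25.3). Ranked by origin score per kb, SKP2 WT went from 3.65% (2.69 to 4.93) to 14.7% (12.7 to 16.9). SKP2 RepID KO went from 3.46% (2.53 to 4.72) to 12.2% (10.4 to 14.3), while the median island width rose from 2200 to 3200 bp. The rise was thus not particular to the CUL4A score. Ranked by H3K4me3 fold enrichment instead, H3K9me3 went from 28.4% (25.9 to 31.2) in the lowest of 5 groups to 19.1% (16.9 to 21.6) in the highest, while the median island width went from 3200 to 2000 bp. The part of island width in this was not tested. The part that signal shared by the ChIP and nascent strand libraries has in these orders was not tested.

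Inside the islands, the bases under H3K4me3 were compared with the remaining bases. H3K4me3 covered 48.1% of the 19363400 bp in the set. RepID KO origins covered 84.2% of the bases under H3K4me3 and 76.8% of the others, and H3K9me3 covered 3.64% and 2.37%. SKP2 WT covered 1.48% and 0.774%, and SKP2 RepID KO 1.37% and 0.797%. All 4 lists thus covered more of the marked bases, and the part of position within the island was not tested.

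CDT2 was absent from these islands by rule, and for most no CDT2 peak lay within 10 kb either. The nearest CDT2 peak lay at a median of 22742 bp, with quartiles of 9083 and 51684 bp. At the islands without H3K4me3, which also lack CDT2 by rule, the median was 20517 bp, with quartiles of 8014 and 48118 bp. At the H3K4me3 islands without an origin or CDT2 it was 29958 bp. Such a distance was thus not particular to this set. The counts by distance that follow are for this set only. A CDT2 peak lay within 2 kb of 260 islands (4.74%) and within 10 kb of 1485 (27.1%), whereas 593 (10.8%) had none within 100 kb. Divided into 5 groups by this distance, in the group nearest to CDT2 H3K9me3 was shared by 22.9% (20.5 to 25.5) and RepID KO origins by 94.9% (93.4 to 96.0). In the farthest group these were 18.1% (16.0 to 20.5) and 88.4% (86.4 to 90.2), and the islands there were narrower (median 2200 against 3200 bp).

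The islands were unevenly spread over the genome. They made up 14.9% (13.6 to 16.2) of the CUL4A islands on chromosome 19 (449 islands), 13.7% (12.6 to 15.0) on chromosome 17 (446 islands) and 12.4% (11.0 to 13.8) on chromosome 22 (267 islands). On chromosomes 18 and 13 they made up 5.13% (4.06 to 6.46) and 5.79% (4.37 to 7.64). Per Mb, there were 7.59 on chromosome 19 and 0.400 on chromosome 13, where all CUL4A islands numbered 51.1 and 6.90 per Mb. Per 100 H3K4me3 peaks, there were 40.8 on chromosome 22, 27.6 on chromosome 19 and 9.07 on chromosome 13. The share with a RepID KO origin stayed between 84.5% on chromosome 21 and 95.7% on chromosome 9.

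**Figure D5:**
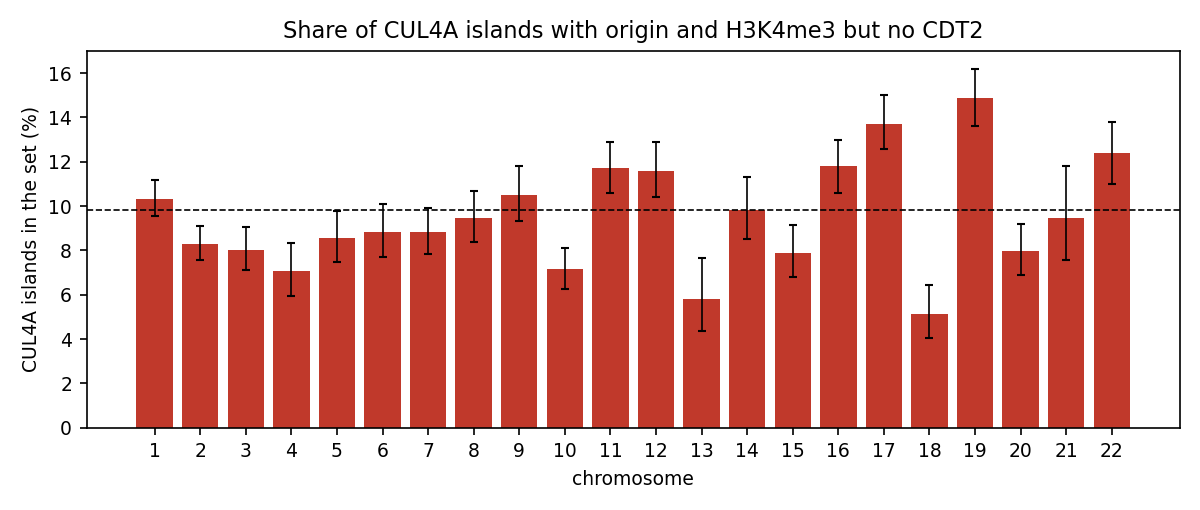
Percentage of the CUL4A islands of each chromosome that belong to the CDT2-free H3K4me3 origin islands, with 95% Wilson intervals, and the value over chromosomes 1 to 22 (9.84%) as a dashed line. Chromosomes 19, 17 and 22 stand highest and chromosomes 18 and 13 lowest.

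On a finer scale the spacing of the islands was uneven, as was that of all CUL4A islands. The nearest other island of the set lay at a median of 46200 bp, with quartiles of 7000 and 162650 bp. Of 2894 windows of 1 Mb, 1551 held at least 1 of the islands, and 254 windows held 50% of them. All CUL4A islands, which are more numerous, lay a median of 5600 bp apart and filled 2675 windows, of which 482 held 50%. The fullest window, chr17:79000001-80000000, held 38 of them among 105 CUL4A islands, followed by chr8:145000001-146000000 with 34 of 86 and chr16:2000001-3000000 with 29 of 97. Windows with 10 or more numbered 120 and held 1734 of the islands. Positions here and below are in hg19, the build that the submitters' processing notes name, and no gene was assigned, since an annotation of that build was not used here.

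The islands with the highest CUL4A scores were unlike the rest of the set. The highest score, 33185, was that of chr4:49280601-49333800, a region of 53200 bp that met 10 H3K4me3 peaks, none above a fold enrichment of 2.23. The same region met 4 H3K9me3 peaks, 10 SKP2 WT peaks and 13 SKP2 RepID KO peaks, with a CDT2 peak 3401 bp away. Next were chr8:86726401-86762000, with a score of 10487 and an H3K4me3 fold enrichment of 3.44, and chr21:9693801-9707000, with 7768 and 4.62. All 3 had H3K4me3 below the lower quartile of the set and SKP2 in both lines. Their CUL4A scores were 624, 295 and 588 per kb, against a median of 33.8 in the set. No reads were used here, so whether such scores reflect binding or an excess of reads in the region was not tested.

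The 3 islands with the strongest H3K4me3 were 400, 800 and 3800 bp wide. At chr18:51750001-51750400 the fold enrichment was 44.9 under a peak of 3057 bp. At chr3:37902401-37903200 it was 42.1 under a peak of 3680 bp, and at chr1:183385601-183389400 it was 41.9 under a peak of 1863 bp. Each of the 3 met a single origin, a single RepID KO origin and a single H3K9me3 peak, and none met SKP2. The widest island, chr19:36744601-36801600 with 57000 bp, met 6 H3K9me3 peaks and had an H3K4me3 fold enrichment of 6.10. After it and the region on chromosome 4 came chr7:1090601-1138800 with 48200 bp, which met 3 H3K9me3 peaks and 2 SKP2 WT peaks.

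At its edges the rule passed and refused islands with nearly the same values. The smallest H3K4me3 overlaps inside the set were 8 bp at chr19:15335401-15339200 and 14 bp at chr16:31472601-31480200, and 83 islands had under 200 bp of the mark. Just outside, chr21:45077001-45079000 lay 24 bp and chr10:73728201-73736400 lay 86 bp from an H3K4me3 peak, and 421 origin islands without CDT2 lay within 1 kb of the mark. The smallest gaps to CDT2 inside the set were 219 bp at chr2:109065601-109066200 and 628 bp at chr19:42615601-42620400. Just outside, chr15:22155001-22159200 shared 94 bp and chr2:191401001-191402800 shared 124 bp with a CDT2 peak.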

How the data were processed

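Regions were called by the authors before deposition, and no reads were used here. CUL4A islands and origins were called with SICER (window 200 bp, gap 600 bp, false discovery rate 1e-05 for CUL4A and 0.01 for origins), against IgG and total genomic DNA, respectively, and each has a score in whole numbers from the authors. CDT2 and SKP2 peaks were called by the authors with MACS2 per the methods of the study, and carry a score whose scale is not stated. Histone peaks are stated to come from SICER, but the deposited lists have the MACS2 broad peak form, with a fold enrichment (a ratio over the control) and −log10 p and −log10 q. The submitters' processing notes name MACS, SICER and hg19, with no version. Scores were ranked within a list only.

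Regions on chromosomes 1 to 22 were compared by shared bases, with a minimum of 1 bp. Shares were given Wilson and differences Newcombe 95% intervals. Width-weighted differences used 5 classes (up to 1000, 2000, 4000 and 8000 bp, and above), weighted by the numbers of chosen islands. Chromosome length was taken as the largest end over the lists. The named islands are the 3 with the highest CUL4A score, the 3 with the highest H3K4me3 fold enrichment, the 3 widest and those nearest each threshold; the fullest windows were named after their counts were seen. The set and its comparisons were chosen with earlier results of these data known. Alternatives were another minimum overlap, a CDT2 gap, stricter peaks, stronger islands, island centres, extreme islands and width weighting. A stricter H3K9me3 threshold and the omission of islands above 8000 bp were chosen after seeing the data. Overlap counting was tested on simulated data, where none of the counts compared differed from a direct count. Python 3.11.15, NumPy 2.4.6, pandas 2.3.3, SciPy 1.17.1 and matplotlib 3.10.9 were used.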

Additional observations from a re-analysis of the deposited data

How the results depend on the processing

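Of the 50 values recomputed under an alternative, 18 moved and 32 did not. A share or a difference was taken to move when it fell outside the interval of the value as reported. Among these 50 values, no difference changed its sign. The SKP2 differences from the islands without an origin were not among them, and their sign did change. For SKP2 WT the difference was 3.74 points (2.30 to 4.94) unweighted and -2.11 points (-5.77 to 1.54) weighted by width. For SKP2 RepID KO it was 2.92 points (1.46 to 4.14) and -1.88 points (-6.10 to 2.33). The weighted intervals hold values of either sign, and the weighted values lean on 4 islands above 8000 bp without an origin. Counts and shares cannot be negative, so a reversal was not possible for them and its absence says nothing about them. The number of islands was between 4498 and 5436 under 5 of its 6 alternatives, against 5484 as reported. Limited to the 50% of CUL4A islands with the higher score per kb, the set held 2624 islands, with shares of 22.1% for H3K9me3, 92.8% for RepID KO origins, 11.1% for SKP2 WT and 9.60% for SKP2 RepID KO. With each island replaced by 1 kb around its centre and the rule applied to that 1 kb, 4498 islands were chosen. These shares were then 11.1%, 89.4%, 3.96% and 3.36%. The regions were shorter and the choice of islands differed, and the parts of the 2 were not tested. With H3K4me3 peaks of −log10 q of at least 5, H3K9me3 was shared by 19.4% and RepID KO origins by 93.1%, and the H3K9me3 difference from the islands without H3K4me3 was -7.43 points. With H3K9me3 peaks of −log10 q of at least 2, an alternative chosen after seeing the data, the H3K9me3 share was 15.1% and that difference -3.99 points. Weighting by width took the RepID KO origin difference from the islands without H3K4me3 to 16.0 points. Against the islands without an origin, weighting was added after the data had been seen and gave 2.55 points for H3K9me3 and 10.5 points for RepID KO origins, or 11.4 points for the latter when islands above 8000 bp were left out. The causes of these shifts were not tested beyond what the construction of each alternative shows. Depth is unknown, each list rests on 1 sample, and an island can miss a list because its signal was too weak to be called. No paired analysis was possible because each condition has 1 sample and the labels carry no replicate numbers.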
